A study of Mus musculus with 20 samples.

Results

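CD4+ iNKT1 cells sorted from thymus were set against CD4+ iNKT1 cells sorted from cold-prepared liver (liver_C), both from female BL6 mice (C57BL/6N) 8 to 12 weeks old and untreated as far as the labels say. These groups hold 3 libraries each, 6 of the 20 in the series, and were chosen by organ and strain alone. The other groups are BL6 spleen, blood and heat-prepared liver (liver_H, digested at 37 °C) and BALB/c liver_C and liver_H. BL6 spleen and blood, 3 libraries each, serve below as the outside reference, and all 15 BL6 libraries entered the fit. Thymus, liver and spleen cells were sorted as CD3+, CD1d tetramer+, B220- and CD4+. Liver and spleen cells were further sorted as CXCR3+ and CD138-, whereas thymus cells were sorted as CD122+ without the CD138 exclusion, and the gate of the blood cells was not given, so the organ and the gate cannot be told apart. Thymus was meshed in the cold. Liver was perfused, meshed in the cold and passed over a density gradient at 20 °C, a step not described for thymus. Each liver and spleen library came from a pool of 4 to 6 mice. For thymus and blood no pool size was given by name, although a caption of the study gives 4 to 6 mice for organs named only in its picture. In the study's liver preparation a part of each liver was handled in the cold and another part digested, so liver_C and liver_H libraries, both in the fit, may share mice. Which libraries do was not given, and p-values measure the spread between these libraries.

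Invariant natural killer T (iNKT) cells carry a nearly invariant T cell receptor for glycolipids on CD1d. They are selected in the thymus from CD4+CD8+ double-positive thymocytes, and the iNKT1 subset is the one that depends on T-bet, responds to IL-15 through CD122 and makes interferon-γ. Mature iNKT1 cells are known to stay for long in thymus and in the sinusoids of the liver, and to hold granzyme B and other contents of cytotoxic granules. P2X7, an ion channel gated by extracellular ATP, and ART2.2, a surface enzyme that ADP-ribosylates it in the presence of NAD, are known to set how easily such cells die.

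Values are read counts per gene after division by a size factor of each library, called normalized reads below. They compare 1 gene between libraries but not 2 genes with each other, since they are not scaled to gene length. Per-library values are given in the order N0967, N1376, N1380 for thymus and N1224, N1379, N1383 for liver_C. Depth in these libraries was 11134789 to 19893211 reads from 69300 to 209900 sorted cells. Thymus N0967 and liver_C N1224 come from lower ranges of library numbers than the other libraries, which leaves 2 against 2 within the highest range.

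Markers of other cells were read first. The 6 defining markers of double-positive thymocytes (Rag1, Rag2, Ptcra, Cd8a, Cd8b1 and Dntt) summed to 10370, 23280 and 17140 normalized reads in the thymus libraries and to 23.1, 46.5 and 13.6 in the liver_C libraries. Thymus N1376 held the most, and in liver_C Rag2 and Ptcra had no read in any library. Blood N0962 also stood apart with 2548, against 952 and 176 in the other blood libraries and 71.3 to 168 in spleen. Of the wider list of 15 such markers 12 were higher in thymus and 0 in liver_C, where edgeR, DESeq2 and an unadjusted p under 0.05 also gave 0. Of the 12, 2 passed the filter on low values only through the thymus libraries. B and plasma cell markers summed to 998 to 2100 in thymus and 1729 to 1986 in liver_C, with Igkc at 13.9, 162 and 54.5 in thymus and 3.85, 8.27 and 2.56 in liver_C. Only Ighm of this list passed a filter of over 300 normalized reads, with a log2 fold change of thymus minus liver_C of -0.79. The list had a median of 1.15, so its sums and its median differ in direction. Markers of hepatocytes summed to 15.2 to 64.0 in thymus and 20.7 to 52.8 in liver_C, those of Kupffer cells and macrophages to 96.0 to 261 and 60.5 to 113, those of liver endothelium to 299 to 406 and 292 to 384 and those of thymic epithelium to 168 to 250 and 119 to 176. Neutrophil markers summed to 46.2 to 116 in thymus and 2.20 to 24.8 in liver_C, dendritic cell markers to 273 to 349 and 176 to 209, erythroid markers to 1.26 to 44.1 and 44.5 to 168, platelet markers to 0 to 10.1 and 2.07 to 8.80, and NK cell markers to 2686 to 3895 and 2988 to 3566. Most of the NK cell sums came from Klrb1c (NK1.1), which is also used as a marker of iNKT1 cells. Pecam1 was the only liver endothelium marker to pass a filter of over 300 normalized reads. Among thymic epithelium markers, Ccl25 had means of 155 in thymus and 134 in liver_C. It overlaps Elavl1 on the opposite strand, which had 1525 and 1420. The part of other cells in these sums was not tested. In thymus, 2 of 7 tested macrophage markers (C1qa and C1qc), 1 of 4 neutrophil markers (Ngp), 1 of 3 dendritic cell markers (Bst2), 1 of 7 NK cell markers (Fcer1g) and 2 of 19 B and plasma cell markers (Igkc and Jchain) were higher, while 1 of the latter (Ighm) was higher in liver_C. The call of C1qa was lost in 9 of 16 alternatives, that of Bst2 in 7 of 18, that of Igkc in 3 of 16 and that of Jchain in 3 of 15. Of all genes tested, 6.2% were higher in thymus and 6.27% in liver_C. The hepatocyte, endothelial, thymic epithelial and erythroid lists had no call in limma, edgeR or DESeq2, and at an unadjusted p under 0.05 only 2 of 5 erythroid markers passed, both higher in liver_C.

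The transcriptomes of the pools were close overall. Of 13604 genes tested, 1697 (12.5%) differed between thymus and liver_C at an adjusted p under 0.05, 844 higher in thymus (6.2%) and 853 higher in liver_C (6.27%). Without thymus N1380 the number higher in thymus was 543. The shares of 6.2% and 6.27% are the background of the list counts below. Libraries of thymus and liver_C did not overlap in 3731 genes (27.4%), which is the background for each gene below said not to overlap. The larger differences lay on the thymus side, where 582 called genes exceeded 2-fold and 201 exceeded 8-fold, against 333 and 50 on the liver_C side. However, 117 of the 844 genes passed the filter on low values only through the thymus libraries. Only 7 of the 853 did so only through those of liver_C. How many of these exceeded 2-fold or 8-fold was not counted. For 7622 genes (56%) the 95% interval of the difference lay within 2-fold in either direction, and such genes are called alike below. Among the 5522 genes above 300 normalized reads 4825 (87.4%) were alike and 976 (17.7%) were called, some genes being both since 439 of all genes tested were called for a difference that was itself within 2-fold. A further 4724 genes were neither called nor alike, so for these no statement is possible. Across genes, mean log2 levels of thymus and liver_C had a Pearson r of 0.94 and a Spearman rho of 0.96, and single libraries had an r of 0.904 to 0.92 between the groups, against 0.939 to 0.956 within thymus and 0.959 to 0.971 within liver_C. Genes are not independent replicates, and abundance differences between genes make up most of such values. In bulk RNA, a difference in the share of cells that express a gene and a difference in RNA per cell cannot be told apart.

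**Figure D1:**
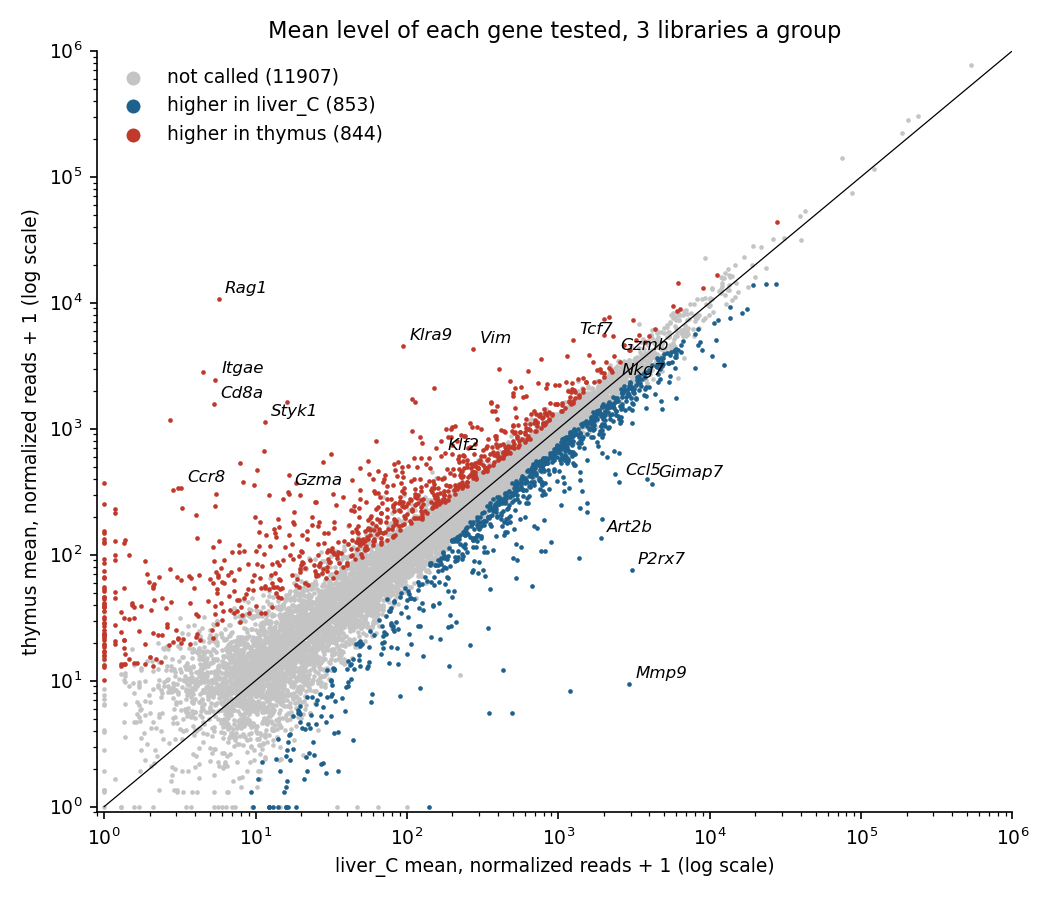
Mean normalized reads plus 1 of each of the 13604 genes tested in liver_C (x axis) and thymus (y axis), both on log scales, with 844 genes higher in thymus in red, 853 higher in liver_C in blue and the others in gray. Most genes lie along the line of equal levels, and the red genes farthest from it (Rag1, Itgae, Cd8a) have means over 1000 in thymus and under 10 in liver_C.

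The genes of the sort itself were checked next. CD3 subunits had similar levels, with Cd3e at 7340, 6533 and 6161 in thymus and 6752, 7020 and 6875 in liver_C and Cd3g at 14450, 10060 and 12950 and 11640, 11410 and 11480, and both were alike. Cd4 had 1844, 2332 and 1818 in thymus and 2644, 2414 and 2430 in liver_C and was alike as well. Of the genes that distinguish the gates, Il2rb and Cxcr3 both differed, and in the same direction. Sdc1, which encodes CD138, excluded in liver but not in thymus, was too low to be tested. It went the other way, with 13.9, 5.49 and 11.5 in thymus and 0.550, 0 and 0 in liver_C. Il2rb, which encodes CD122, the gate of the thymus cells, had 15560, 13310 and 13100 normalized reads in thymus and 28890, 26050 and 27510 in liver_C (log2 fold change -0.98 ± 0.14 SE, adjusted p = 7.9e-05). Cxcr3, the chemokine receptor of the liver gate, had 2179, 1576 and 1598 and 2605, 3038 and 2714 (log2 fold change -0.66 ± 0.13 SE, adjusted p = 0.0012). Each liver_C library lay above each thymus library for both genes. Of 7 gate genes tested, these were the only 2 called and 6 were alike.

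Granzyme B, the protease that cytotoxic granules deliver into target cells, is the gene that marks both pools as Gzmb-rich. Gzmb reached 3407, 3815 and 4136 normalized reads in the thymus libraries and 1977, 2643 and 2406 in those of liver_C. Spleen had 62.3, 96.2 and 80.7, whereas blood had 1578, 2257 and 2176. The blood libraries overlapped those of liver_C, so a high Gzmb level was shared by thymus, liver_C and blood against spleen, and was not particular to the pools considered resident. Thymus lay above liver_C without overlap (log2 fold change 0.70 ± 0.17 SE, adjusted p = 0.0083), but this call was lost without liver_C N1224 and with all 20 libraries in the fit. Gzma, a granzyme of other specificity, differed far more. It had 256, 316 and 372 in thymus, 30.3, 9.31 and 6.82 in liver_C, and means of 64.1 in spleen and 34.3 in blood (log2 fold change 4.52 ± 0.55 SE, adjusted p = 9.4e-06). All 3 thymus libraries were above all others. In both genes the thymus was thus the highest of the 4 organs.

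The promoters of the granzyme genes are shown because both genes were higher in thymus, by very different amounts. They are RefSeq sequences of GRCm38.p6, 250 bases before to 50 after the transcription start, 5′ to 3′ on the strand of the gene, and capitals mark matches to TGANTCA (AP-1) or, on either strand, TGTGGTT (RUNX). The genes and motifs were chosen after values had been seen. TGANTCA occurs in 7.81% and TGTGGTT in 5.27% of 32851 promoters of this length, and a match is a description of letters only. The Gzmb window (chr14:56262285-56262584, minus strand) holds TGAGTCA at -58 and TGTGGTT at -34, and the Gzma window (chr13:113100932-113101231, minus strand) holds AACCACA, the reverse complement of TGTGGTT, at -51.
Gzmb: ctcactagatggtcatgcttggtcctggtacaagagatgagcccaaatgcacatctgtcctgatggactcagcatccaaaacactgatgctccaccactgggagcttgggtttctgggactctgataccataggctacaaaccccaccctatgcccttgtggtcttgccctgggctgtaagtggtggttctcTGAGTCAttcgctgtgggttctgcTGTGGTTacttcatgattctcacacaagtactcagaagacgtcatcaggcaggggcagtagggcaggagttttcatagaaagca
Gzma: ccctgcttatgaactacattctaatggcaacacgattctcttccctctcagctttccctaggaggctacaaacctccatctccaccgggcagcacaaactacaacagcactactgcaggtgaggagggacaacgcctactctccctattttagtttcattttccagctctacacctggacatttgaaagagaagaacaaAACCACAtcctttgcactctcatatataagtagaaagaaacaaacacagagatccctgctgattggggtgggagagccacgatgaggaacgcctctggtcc

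The cytotoxic granule list went both ways. Of 28 members tested 6 were higher in thymus, 6 were higher in liver_C and 16 were alike, beside 6.2% and 6.27% of all genes tested, with a median log2 fold change of -0.11 against 0.01 over all genes tested. Among granule contents, Ctsc, the cathepsin that activates granzymes, had 944, 895 and 958 in thymus and 434, 680.4 and 546 in liver_C (log2 fold change 0.77 ± 0.16 SE, adjusted p = 0.0024), and Ctsw, a cathepsin of cytotoxic lymphocytes, had 3419, 2409 and 3108 and 1777, 1986 and 1858 (log2 fold change 0.65 ± 0.12 SE, adjusted p = 0.00076). Of the 10 genes for contents and processing 4 were higher in thymus and 2 in liver_C. Of 6 secretion genes 2 were higher in liver_C and 4 were not called. Lyst, a regulator of lysosome size whose loss gives giant granules, had 3072, 3339 and 3205 in thymus and 14680, 10860 and 11800 in liver_C (log2 fold change -1.95 ± 0.14 SE, adjusted p = 7.5e-09). Stx11, a syntaxin needed for granule fusion, had 43.0, 76.8 and 78.7 and 297, 356 and 332 (log2 fold change -2.34 ± 0.23 SE, adjusted p = 6.1e-07). Neither pair of groups overlapped. By contrast Nkg7, a granule membrane protein, had 2606, 2043 and 2503 and 1931, 2845 and 2386 with overlapping libraries, and Serpinb9, the granzyme B inhibitor that protects the cell itself, had 662, 501 and 821 and 557, 694 and 643. Both were alike, as was Stxbp2, the partner of Stx11. Summed over the list, the thymus libraries had 28260 to 32940 normalized reads and those of liver_C 39350 to 40380. The numbers higher in thymus and in liver_C were 2 and 4 within the highest library range, 3 and 5 with all 20 libraries in the fit and 7 and 3 under quantile scaling.

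**Figure D2:**
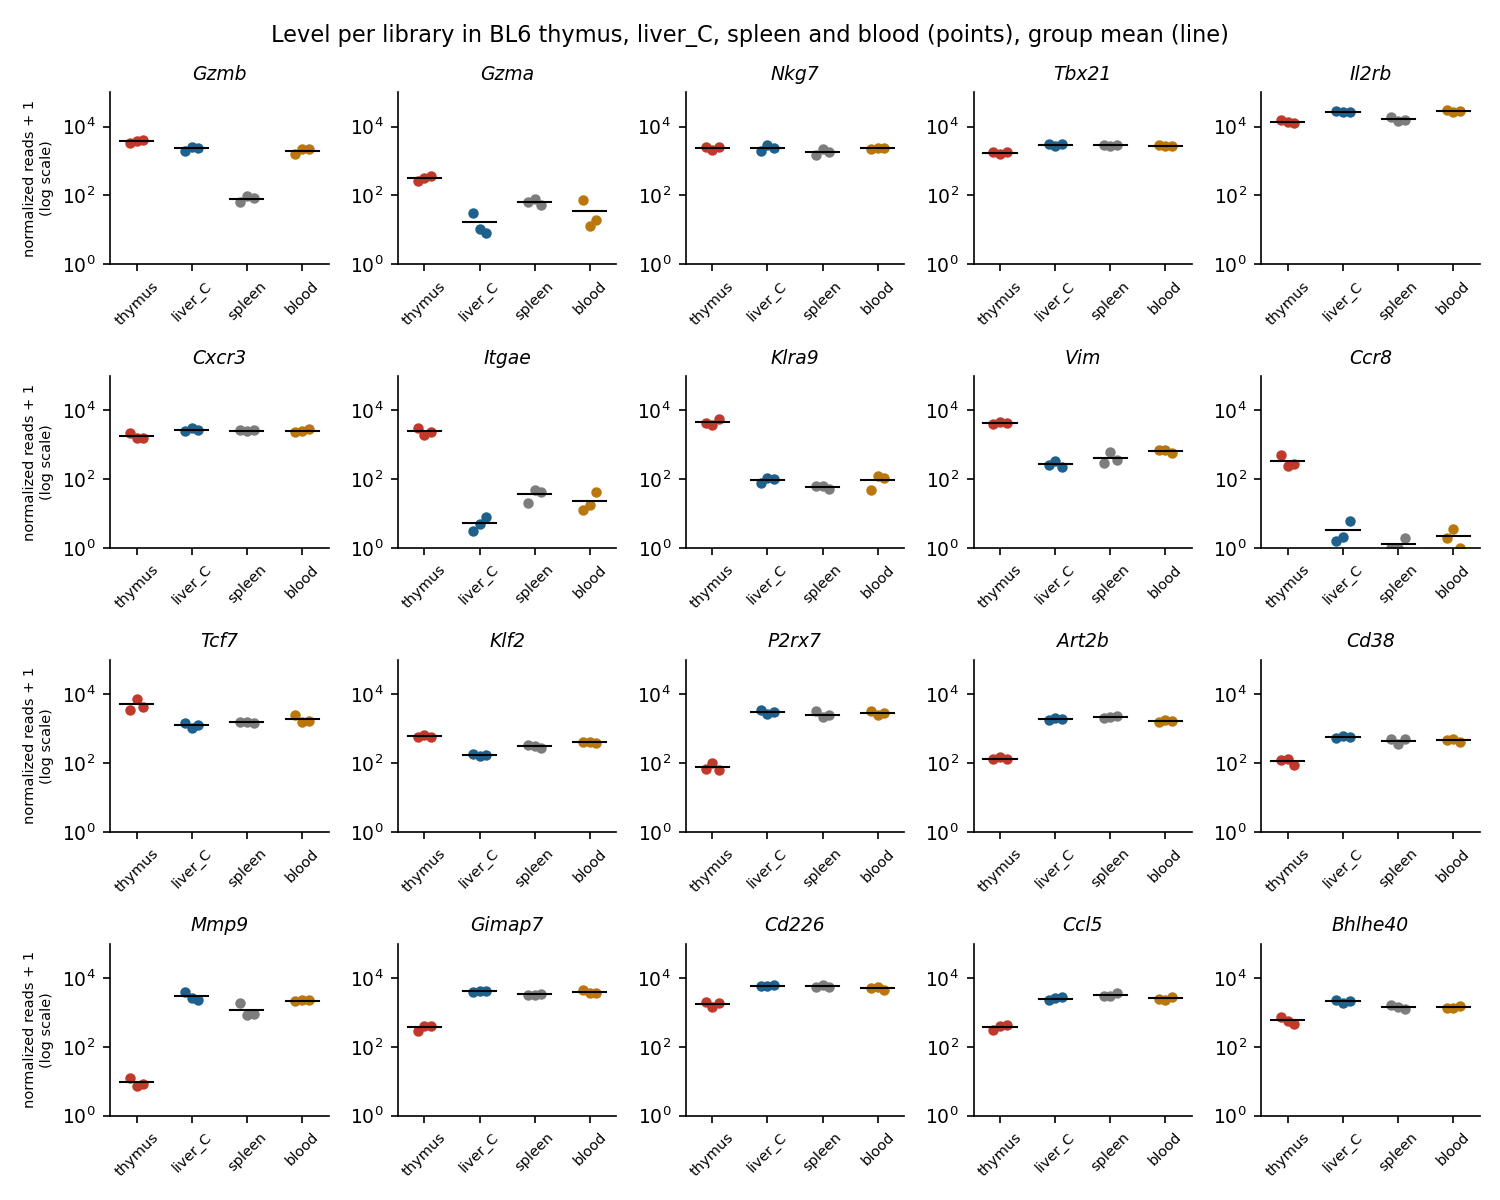
Normalized reads plus 1 (log scale) of 20 genes in each library of BL6 thymus, liver_C, spleen and blood (points) with the group mean (line). Gzmb is low in spleen alone, P2rx7, Art2b, Mmp9 and Gimap7 are low in thymus alone, and Itgae, Klra9, Vim and Ccr8 are high in thymus alone. Tbx21 and the choice of Cd226 for a panel came after their values were seen.

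The 12 genes with the largest excess in thymus differed in their order over the thymus libraries. Rag1, the recombinase of receptor gene rearrangement, had 7357, 14000 and 10480 in thymus and 0, 12.4 and 1.70 in liver_C (log2 fold change 11.60 ± 1.69 SE, adjusted p = 8e-05). Dntt, which adds bases at the joints, had a mean of 2808 in thymus and 0.550, 8.27 and 1.70 in liver_C. The coreceptor genes Cd8a and Cd8b1 had 755, 2318 and 1628 and 816, 2413 and 1701 in thymus against at most 7.70 and 20.7 in liver_C. Arpp21 and Cd24a, further genes of immature thymocytes, had 610.1, 1611 and 1292 and 114, 514 and 350.4. Endou, an endoribonuclease, had 116, 617 and 368 in thymus and no read in liver_C, which makes it at least 151-fold higher in thymus with 3 reads per library as the floor. In these 7 genes the libraries followed the order of the summed double-positive markers, highest in N1376 and lowest in N0967. Since Rag1, Dntt, Cd8a and Cd8b1 are part of that sum, only Arpp21, Cd24a and Endou were free to differ from it. Fold changes of genes with so few reads in liver_C depend on the pseudocount of 1.

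In 4 others the order was the reverse, with the highest level in the library of the lowest marker sum. Itgae, the αE integrin chain (CD103) that binds E-cadherin, had 3075, 1984 and 2302 in thymus and 2.20, 4.14 and 6.82 in liver_C (log2 fold change 8.90 ± 0.52 SE, adjusted p = 6.3e-10), while Haspin, which lies within it on the opposite strand, had means of 122 and 123. Itgae had means of 36.0 in spleen and 23.0 in blood. Styk1, a kinase-like protein of NK and T cells, had 1312, 991 and 1073 and 14.3, 6.20 and 11.1 (log2 fold change 6.67 ± 0.68 SE, adjusted p = 1.3e-06). Ccr8, a chemokine receptor of skin-homing and regulatory T cells, had 500.2, 244 and 271 and 0.550, 1.03 and 5.11 (log2 fold change 6.91 ± 0.92 SE, adjusted p = 2.7e-05), and the unnamed transcript Gm47050 had 496, 241 and 280.1 and 2.75, 0 and 3.41. Cdh1, E-cadherin itself, had 479, 514 and 598 and 7.70, 10.3 and 2.56 (log2 fold change 6.23 ± 0.77 SE, adjusted p = 1.3e-05) and followed neither order. By the rule that selected them, the libraries of thymus and liver_C did not overlap in any of these genes. Among all 372 genes above 300 normalized reads that were higher in thymus without overlap, 130 followed the order of the marker sum and 68 the reverse. Among the 11907 genes not called, 18.4% followed that order and 18.9% the reverse, and the part of double-positive thymocytes in the thymus excess was not tested.

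**Figure D3:**
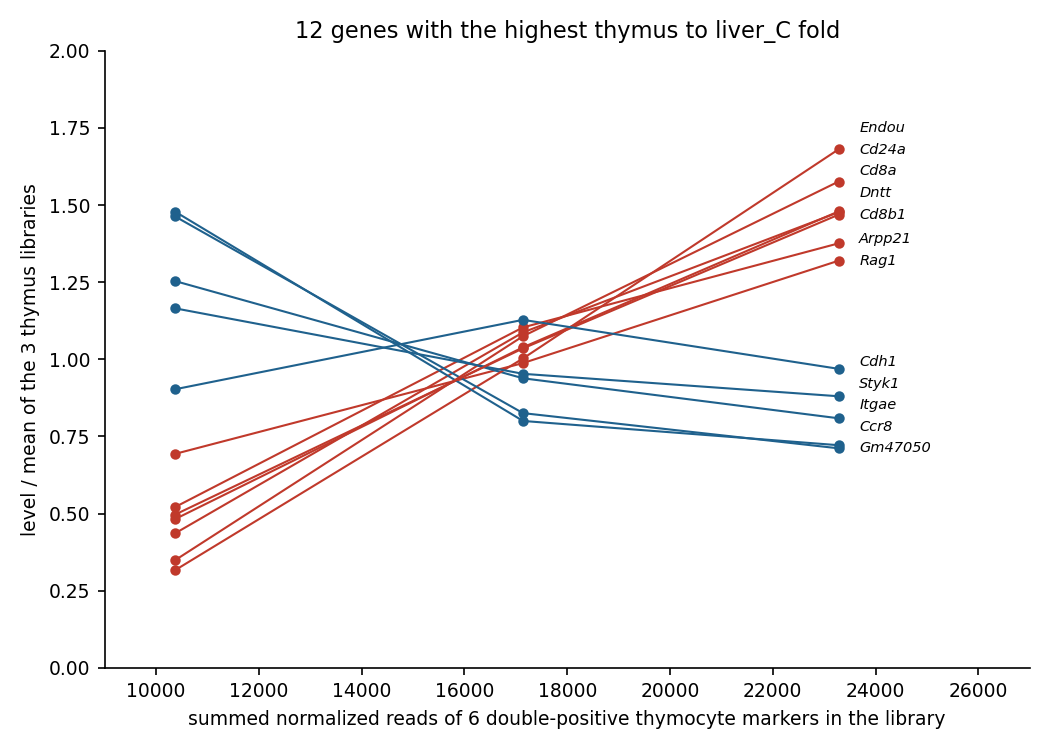
Level of the 12 genes with the largest excess in thymus, divided by the mean of the 3 thymus libraries (y axis), against the summed normalized reads of 6 double-positive thymocyte markers in the same library (x axis; 10370 in N0967, 17140 in N1380 and 23280 in N1376). Lines join the libraries of a gene; 7 genes rise with the marker sum (red), 4 of which (Rag1, Dntt, Cd8a and Cd8b1) are part of it, and 5 do not (blue).

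On the liver_C side the largest differences concerned genes low in thymus. Mmp9, a matrix metalloproteinase better known from neutrophils, had 11.4, 6.40 and 7.34 normalized reads in thymus and 3886, 2588 and 2370 in liver_C (log2 fold change -8.30 ± 0.27 SE, adjusted p = 6.5e-14), with means of 1186 in spleen and 2223 in blood. The 8 listed neutrophil markers summed to 46.2 to 116 in thymus and 2.20 to 24.8 in liver_C, and the part of neutrophils in the Mmp9 level was not tested. Pak6, a p21-activated kinase, had 6.32, 6.40 and 1.05 and 492, 263 and 282, and Gcnt2, which branches poly-N-acetyllactosamine chains, had 0, 8.23 and 5.25 and 531, 394 and 553. Asb2, a subunit of a ubiquitin ligase, had 208, 240.5 and 129 and 2165, 1797 and 1883. Cd72, which is known as a B cell coreceptor, had 24.0, 17.4 and 33.6 and 362, 299.9 and 358 and overlaps Tesk1 on the opposite strand, and Hic1, a transcriptional repressor, had 85.9, 43.0 and 37.8 and 902, 475 and 632. Tmem273 and Gm4956 went the same way, with means of 11.2 and 7.24 in thymus against 433 and 1190 in liver_C. By the rule that selected them, the groups did not overlap in any of these genes. In each of these genes the spleen and blood means were also far above thymus, for example 2267 and 1692 in Asb2 and 1546 and 1014 in Gm4956.

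P2rx7 and Art2b belong to this set. P2rx7 (chromosome 5) had 64.4, 99.7 and 59.8 normalized reads in the thymus libraries and 3483, 2588 and 3088 in those of liver_C (log2 fold change -5.36 ± 0.18 SE, adjusted p = 7.7e-14), a 41.1-fold lower level in thymus. Art2b, which encodes ART2.2, had 126, 144 and 132 and 1767, 2019 and 1917 (log2 fold change -3.81 ± 0.11 SE, adjusted p = 1.8e-14), a 14.1-fold lower level. The means of spleen and blood were 2570 and 2866 for P2rx7 and 2171 and 1647 for Art2b. Hence thymus was the only one of these 4 organs with low levels of both. Art2a-ps, the neighbouring pseudogene that can share reads with Art2b, had no read in thymus and 182, 106 and 127 in liver_C, at least 42.8-fold lower in thymus. Of 7 ecto-enzymes tested, Art2b and Art2a-ps included, 4 were higher in liver_C, 2 in thymus (Nt5e and Art4) and 1 was not called. Cd38, an NAD glycohydrolase, had 122, 134 and 83.9 and 539.8, 592 and 567 (log2 fold change -2.33 ± 0.17 SE, adjusted p = 1.4e-08), and Entpd1 (CD39), which degrades ATP, had 639, 643 and 549 and 1346, 1131 and 1209 (log2 fold change -1.01 ± 0.15 SE, adjusted p = 0.00011). Nt5e (CD73), which makes adenosine from AMP, went the other way with 923, 749.7 and 795 and 314, 303 and 405 (log2 fold change 1.28 ± 0.22 SE, adjusted p = 0.0005). Panx1, a channel for ATP release, was alike with 575, 492 and 551 and 531, 474 and 570. Of the 14 members of this list 7 were higher in liver_C and 4 in thymus, the latter 1 within the highest library range. Of the 4, 2 passed the filter on low values only through the thymus libraries.

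The promoters of P2rx7 and Art2b are shown because both genes were low in thymus only. They are RefSeq sequences of the same build and window, and capitals mark TGANTCA. The match lies at -249 in P2rx7 (chr5:122643677-122643976, plus strand, 1 of 2 starts listed) and at -104 in Art2b (chr7:101581112-101581411, minus strand).
P2rx7: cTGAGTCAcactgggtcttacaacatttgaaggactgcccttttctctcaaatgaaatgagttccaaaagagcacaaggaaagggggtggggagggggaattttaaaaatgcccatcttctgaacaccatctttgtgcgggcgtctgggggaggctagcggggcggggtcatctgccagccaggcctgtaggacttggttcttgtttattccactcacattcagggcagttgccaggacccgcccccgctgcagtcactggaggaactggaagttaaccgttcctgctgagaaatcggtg
Art2b: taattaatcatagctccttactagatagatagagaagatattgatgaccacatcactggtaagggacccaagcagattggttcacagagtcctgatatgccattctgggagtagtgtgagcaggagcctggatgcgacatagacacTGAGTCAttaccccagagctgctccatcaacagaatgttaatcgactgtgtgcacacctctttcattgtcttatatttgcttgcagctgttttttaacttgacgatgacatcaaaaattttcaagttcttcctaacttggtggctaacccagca

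Receptors of the NK cell type showed the opposite picture. Of 9 Ly49 genes listed 8 were tested and were higher in thymus, 2 of which passed the filter on low values only through the thymus libraries, while Klra4 did not pass it. Klra9 had 4430, 3686 and 5481 normalized reads in thymus and 74.8, 106 and 101 in liver_C (log2 fold change 5.58 ± 0.26 SE, adjusted p = 1.8e-11), with spleen and blood means of 58.7 and 93.2. Klra1 had 961, 757 and 1264 and 158, 220.3 and 201 (log2 fold change 2.34 ± 0.26 SE, adjusted p = 3.7e-06), and Klra10 had 248, 293 and 374 and 2.75, 7.24 and 3.41 (log2 fold change 5.87 ± 0.78 SE, adjusted p = 2.6e-05). Ly49 receptors bind class I MHC molecules, mostly to inhibit. The genes of this family are near copies that can share reads, so the split between them is uncertain. None of the 10 members of the NK receptor list that were higher in thymus followed the order of the double-positive marker sum. Of all 844 genes higher in thymus 39.7% did, and of the genes not called 18.4%. The part of double-positive thymocytes in these levels was not tested. Elsewhere in the list liver_C was higher, as in Cd160 with 587, 520.2 and 429 in thymus and 1305, 1267 and 1247 in liver_C (log2 fold change -1.32 ± 0.13 SE, adjusted p = 7.2e-07), and Klrb1f, an NKR-P1 receptor, with 61.9, 117 and 78.7 and 332, 311 and 251 (log2 fold change -1.82 ± 0.28 SE, adjusted p = 0.00012). Klrb1c (NK1.1), Klrk1 (NKG2D) and Klre1 were alike. Klrb1c had 3140, 2184 and 3314 and 2632, 3119 and 3260, so the marker often used for mature iNKT1 cells did not distinguish the pools beyond 2-fold. In total 10 of 22 members were higher in thymus, 4 in liver_C and 4 were alike, and within the highest library range 5 were higher in thymus.

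Of 27 lineage transcription factors 10 were higher in thymus, 7 in liver_C and 14 were alike. Bhlhe40, a factor that sustains interferon-γ production, had 738, 576 and 470 and 2262, 1895 and 2178 (log2 fold change -1.85 ± 0.14 SE, adjusted p = 2.1e-08). Runx3, the factor of cytotoxic lineages, Ikzf1 and Lef1 were alike, with Runx3 means of 1174 and 1282. Tbx21 (T-bet) and Zbtb16 (PLZF), chosen after their values had been seen, were both higher in liver_C, Tbx21 with means of 1766 and 3015 (log2 fold change -0.77 ± 0.10 SE, adjusted p = 2.4e-05) and Zbtb16 with 1351 and 2043 (log2 fold change -0.62 ± 0.15 SE, adjusted p = 0.0067). These differences were within 2-fold. Thymus was higher in genes of early T cells, 7 of 13. Tcf7 (TCF-1) had 3555, 7455 and 4180 and 1462, 1050 and 1235 (log2 fold change 1.96 ± 0.21 SE, adjusted p = 2.5e-06) and Myb had 1095, 2159 and 1877 and 64.9, 138 and 120.1 (log2 fold change 3.99 ± 0.39 SE, adjusted p = 7.2e-07). Both followed the order of the double-positive marker sum, as did 6 of the 10 factors higher in thymus, beside 39.7% of all genes higher in thymus. Ahr, the aryl hydrocarbon receptor, did not, with 594, 375 and 431 in thymus and 91.3, 52.7 and 103 in liver_C (log2 fold change 2.52 ± 0.26 SE, adjusted p = 1.7e-06). Without thymus N1380 the number higher in liver_C was 4.

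Genes of egress and homing were split, with 10 of 36 higher in thymus, 12 in liver_C and 13 alike. Of the 10, 3 passed the filter on low values only through the thymus libraries. Klf2, the factor that turns on exit receptors, had 587, 644 and 588 in thymus and 179, 154 and 171 in liver_C (log2 fold change 1.85 ± 0.12 SE, adjusted p = 3.8e-09), and spleen and blood lay between at 311 and 403. Its known target S1pr1, chosen after its values had been seen, had a mean of 349 in thymus and 187 in liver_C (adjusted p = 0.0093). Ccr2, a receptor for monocyte chemokines, had 1987, 1017 and 1257 and 4366, 5611 and 4474 (log2 fold change -1.81 ± 0.19 SE, adjusted p = 1.3e-06). Cd226 (DNAM-1), an adhesion and activating receptor, had 2008, 1445 and 1838 and 6037, 5751 and 6134 (log2 fold change -1.77 ± 0.13 SE, adjusted p = 8.7e-09). Thymus and liver_C did not overlap in either. Itga1 (CD49a), a collagen-binding integrin of resident cells, had a mean of 1283 in thymus and values of 1815, 903 and 970.4 in liver_C and was alike, as were Itgb7, the partner of Itgae, and Ccr9. Within the highest library range 6 members were higher in thymus.

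Cytokines had no member higher in thymus. By limma, edgeR and DESeq2 alike 0 of 14 were, also at an unadjusted p under 0.05, while 5 were higher in liver_C and 3 were alike. Of all genes tested 6.2% were higher in thymus and 6.27% in liver_C, so with 14 members 0 is near the share of all genes. Ccl5, a chemokine stored by memory T cells, had 306, 405 and 426 in thymus and 2237, 2598 and 2756 in liver_C (log2 fold change -2.75 ± 0.14 SE, adjusted p = 7.7e-11). Ifng had 30.3, 25.6 and 40.9 and 186, 175 and 214 (log2 fold change -2.55 ± 0.31 SE, adjusted p = 9.6e-06), but the transcript AC153498.1, which lies inside Ifng on its strand, had means of 93.7 and 500.6 (chosen after its values were seen). Csf2 (GM-CSF) had 32.8, 21.0 and 24.1 and 91.9, 139 and 135 (log2 fold change -2.18 ± 0.34 SE, adjusted p = 0.00016), Tnfsf14 (LIGHT) had 524, 304 and 408 and 949, 1070 and 1187 and Tnfsf11 (RANKL), a signal from T cells to thymic epithelium and bone, had 58.1, 71.3 and 62.9 and 173, 172 and 211. All 5 were without overlap, as were 27.4% of all genes tested. Xcl1 and Tgfb1 were alike.

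The receptors through which such cells read cytokines differed in composition. Il7r, the IL-7 receptor chain, had 8267, 6277 and 7892 in thymus and 2061, 1653 and 2336 in liver_C (log2 fold change 1.89 ± 0.17 SE, adjusted p = 2e-07), with 6422 in spleen and 2100 in blood, so that thymus was near spleen and liver_C near blood. Il2ra (CD25) had 128, 371 and 155 and 1492, 1420 and 1756 (log2 fold change -2.99 ± 0.27 SE, adjusted p = 2.4e-07), Il4ra had 1238, 1099 and 1087 and 2845, 2500 and 2420 (log2 fold change -1.18 ± 0.11 SE, adjusted p = 3.9e-07). Of 7 chains of the common γ family 4 were higher in liver_C and 1, Il7r, in thymus. Socs2 and Pim1, feedback and survival genes downstream of STAT5, had 89.7, 85.9 and 144 and 637, 833 and 733 in thymus and 768, 808 and 733 and 1954, 1731 and 1779 in liver_C, without overlap (log2 fold change -2.88 ± 0.18 SE, adjusted p = 1.2e-09 for Socs2). Ifnar1, Il6st and Socs1 were alike. In all 7 of 33 were higher in thymus, 12 in liver_C and 15 were alike, and 3 were higher in thymus within the highest library range. Of the 7, 1 passed the filter on low values only through the thymus libraries. Of 18 costimulatory and inhibitory receptors 1 was higher in thymus (Pdcd1, PD-1, 183, 208 and 184 against 80.9, 84.8 and 77.5), 3 were higher in liver_C (Btla, Slamf1 and Tnfrsf18, the Slamf1 call being lost in 5 of 18 alternatives) and 10 were alike, among them Cd2, Cd5 and Sh2d1a. These counts stand beside 6.2% of all genes tested higher in thymus and 6.27% in liver_C.

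**Figure D4:**
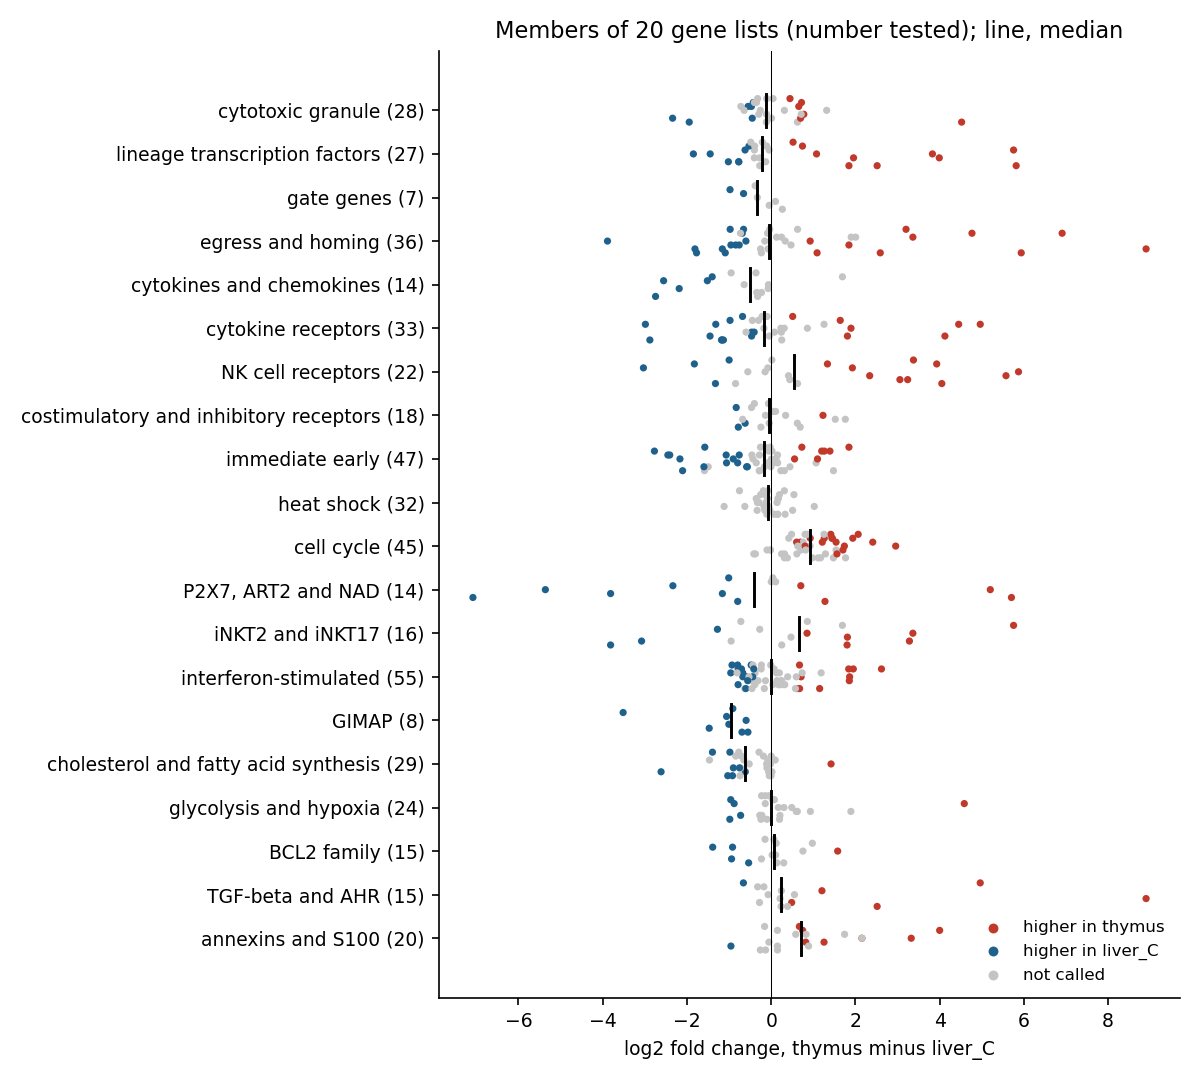
Log2 fold change of thymus minus liver_C (x axis) of each member tested in 20 gene lists (rows, number tested in parentheses), red where higher in thymus, blue where higher in liver_C and gray where not called; black lines are list medians. GIMAP members all lie on the liver_C side, with a median of -0.96, cell cycle members mostly on the thymus side, with a median of 0.92, and heat shock members have a median of -0.09.

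Immediate early genes, which respond within minutes to stimulation or handling, were higher in liver_C in 14 of 47 cases and in thymus in 7, with 20 alike and a median of -0.16. The density gradient used for liver and the organ cannot be told apart here. Dusp6, a phosphatase of ERK, had 541, 367 and 411 in thymus and 2326, 2507 and 2310 in liver_C (log2 fold change -2.45 ± 0.15 SE, adjusted p = 7.1e-10). Jun had 256, 79.5 and 169 and 836, 659.7 and 575 (log2 fold change -2.17 ± 0.29 SE, adjusted p = 2.6e-05). Ppp1r15a (GADD34), which restarts translation after stress, had 177, 214 and 205 and 659, 508 and 648 (log2 fold change -1.60 ± 0.20 SE, adjusted p = 1.5e-05), and Dusp1 had 368, 299 and 435 and 918, 1128 and 1233 (log2 fold change -1.58 ± 0.18 SE, adjusted p = 5.3e-06). In all 4 the liver_C libraries lay above the thymus libraries. Fos had 22.7, 29.3 and 24.1 and 68.8, 67.2 and 101 and did not pass the main test, although edgeR and DESeq2 called it. Nr4a1, a gene induced by T cell receptor signals, went the other way with 89.7, 171 and 134 and 34.7, 41.4 and 75.8 (log2 fold change 1.39 ± 0.36 SE, adjusted p = 0.014), a call lost without liver_C N1224, without thymus N1376 and with all 20 libraries in the fit. Rhob, Egr1, Ier5 and Zfp36l1 were alike. Without thymus N1376, 4 members were higher in thymus.

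The promoters of Dusp1 and Ppp1r15a are shown because both genes were higher in liver_C and are known stress genes. They are RefSeq sequences of the same build and window, and capitals mark TGACGTCA, the cyclic AMP response element, found in 1.79% of promoters. The match lies at -143 in Dusp1 (chr17:26508423-26508722, minus strand) and at -12 in Ppp1r15a (chr7:45526219-45526518, minus strand).
Dusp1: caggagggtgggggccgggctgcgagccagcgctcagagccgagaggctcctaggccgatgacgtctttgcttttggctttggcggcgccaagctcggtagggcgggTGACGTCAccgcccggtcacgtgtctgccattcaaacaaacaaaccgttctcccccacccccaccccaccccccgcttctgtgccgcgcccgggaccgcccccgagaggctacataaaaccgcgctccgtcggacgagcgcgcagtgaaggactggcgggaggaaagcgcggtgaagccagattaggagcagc
Ppp1r15a: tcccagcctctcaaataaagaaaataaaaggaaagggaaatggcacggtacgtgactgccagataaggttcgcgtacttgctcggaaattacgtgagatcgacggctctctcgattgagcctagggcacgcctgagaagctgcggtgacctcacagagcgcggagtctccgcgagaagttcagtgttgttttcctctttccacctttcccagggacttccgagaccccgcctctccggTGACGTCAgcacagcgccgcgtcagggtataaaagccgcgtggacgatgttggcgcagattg

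Heat shock genes gave no call in the main test. By limma and by edgeR 0 of 32 members were called, by DESeq2 1 was higher in thymus and 1 in liver_C, and at an unadjusted p under 0.05 the numbers were 1 and 3. Of all genes tested, limma called 12.5%. The list had 24 alike members and a median of -0.09. Hspa1a had 8.84, 2.74 and 0 in thymus and 0, 4.14 and 11.1 in liver_C, and Hspa1b had 3.79, 9.14 and 15.7 and 11.0, 25.9 and 11.1, which are levels of a few reads with overlapping libraries. Hsp90ab1, an abundant chaperone, had 18490, 22030 and 19300 and 18930, 18510 and 19220 and was alike, as were Hspa4 and Dnajb6. Hspa5, the chaperone of the endoplasmic reticulum, had 6010, 5326 and 5526 and 6304, 7244 and 7656 (log2 fold change -0.33 ± 0.11 SE, adjusted p = 0.055), and it was called under 5 of 18 alternatives.

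Cell cycle genes were higher in thymus in 17 of 45 cases and in liver_C in 0, where edgeR also gave 0 and DESeq2 and an unadjusted p under 0.05 gave 1 each. The median was 0.92. E2f2, which drives S phase genes, had 191, 684 and 436 and 30.8, 95.1 and 39.2 (log2 fold change 2.96 ± 0.42 SE, adjusted p = 5.6e-05), Uhrf1, which keeps DNA methylation at replication forks, had 274, 1317 and 647 and 123, 271 and 201 (log2 fold change 1.70 ± 0.41 SE, adjusted p = 0.0077), and Ccna2 had 229.9, 912 and 599 and 89.1, 209.9 and 118 (log2 fold change 1.94 ± 0.47 SE, adjusted p = 0.0081). Blood means were 206, 493 and 480.4. Of the 17 genes 15 followed the order of the double-positive marker sum and none the reverse, beside 39.7% and 12.9% of all genes higher in thymus. The part of these thymocytes was not tested. The number depended on single libraries: it was 4 without thymus N1376, 6 without liver_C N1224, 7 without liver_C N1383, 10 without thymus N1380, 30 without thymus N0967, 29 within the highest library range, and 9 with all 20 libraries in the fit. Ccnd3, Cdkn1b and Mcm4 were alike.

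All 8 GIMAP genes, GTPases of lymphocyte survival that lie side by side, were higher in liver_C, and 3 of them were alike since their differences were within 2-fold. The number was 7 under quantile scaling, with all 20 libraries in the fit, within the highest library range and without thymus N1376. Gimap7 had 283, 404 and 410.2 in thymus and 4005, 4188 and 4215 in liver_C (log2 fold change -3.52 ± 0.13 SE, adjusted p = 3e-13). Gimap3 had 3784, 3267 and 4217 and 10710, 9638 and 10780 (log2 fold change -1.47 ± 0.12 SE, adjusted p = 5.4e-08), and Gimap4 had 9639, 8142 and 8728 and 17450, 17870 and 17770 (log2 fold change -1.01 ± 0.12 SE, adjusted p = 9.6e-06). Groups did not overlap in any of the 3, and a transcript lying across Gimap1, Gimap5 and Gimap7 had means of 6.83 and 58.0 reads. Interferon-stimulated genes split by kind. Antiviral effectors were higher in thymus in 9 of 34 cases and in liver_C in 3, while interferon-inducible GTPases were higher in liver_C in 9 of 13 cases and the other 4 were not called. Ifit3 had 582, 774 and 1029 and 194, 198 and 252 (log2 fold change 1.86 ± 0.23 SE, adjusted p = 1.4e-05), Isg20 had 380.2, 369 and 453 and 112, 104 and 116 (log2 fold change 1.84 ± 0.29 SE, adjusted p = 0.00016), Igtp had 868, 1041 and 1235 and 1709, 2074 and 2320 (log2 fold change -0.96 ± 0.14 SE, adjusted p = 0.00011) and Irf1 had 1608, 1163 and 1400 and 2297, 2222 and 2689 (log2 fold change -0.80 ± 0.13 SE, adjusted p = 0.00018). Irf9 and Ifih1 were alike. Over the whole list 10 of 55 were higher in thymus, 6 without thymus N1380, and 14 in liver_C, 8 without liver_C N1383.

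Cholesterol and fatty acid genes were higher in liver_C in 8 of 29 cases and in thymus in 1, with a median of -0.61, and in liver_C in 4 cases without liver_C N1383. Srebf2, the master factor of sterol synthesis, had 736, 1024 and 796 in thymus and 2034, 1273 and 1785 in liver_C (log2 fold change -0.98 ± 0.18 SE, adjusted p = 0.00074). The exception was the desaturase Scd2 with 2150, 2353 and 2228 and 983, 709 and 840.1 (log2 fold change 1.42 ± 0.13 SE, adjusted p = 3.9e-07). Fasn and Srebf1 were alike. In glycolysis and hypoxia 4 of 24 were higher in liver_C and 1 in thymus, 2 and 0 within the highest library range, beside 6.27% and 6.2% of all genes tested. Slc2a3, a glucose transporter, had 1031, 907 and 932 and 1969, 1871 and 1827 (log2 fold change -0.98 ± 0.11 SE, adjusted p = 4.7e-06) and Ndrg1, a gene of hypoxia and stress, had 143, 144 and 93.4 and 3.30, 8.27 and 2.56 (log2 fold change 4.58 ± 0.59 SE, adjusted p = 1.8e-05), whereas Gapdh, Pdk1 and Slc2a1 were alike.

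In the BCL2 family 4 of 15 genes were higher in liver_C, 2 within the highest library range, and 1 in thymus, beside 6.27% and 6.2% of all genes tested. Bcl2 itself had 2336, 2322 and 2804 in thymus and 4515, 4467 and 5086 in liver_C (log2 fold change -0.92 ± 0.12 SE, adjusted p = 2.8e-05), and its antagonist Bcl2l11 (BIM) had 634, 702 and 796 and 1330, 1297 and 1457 (log2 fold change -0.94 ± 0.11 SE, adjusted p = 5.1e-06), so both the survival and the death gene were lower in thymus. Bbc3 (PUMA) was higher in thymus with 91.0, 134 and 166 and 44.0, 33.1 and 49.4 (log2 fold change 1.58 ± 0.34 SE, adjusted p = 0.0032), and Mcl1 was alike. Among genes of TGF-β and AHR 5 of 15 were higher in thymus, 1 in liver_C and 11 were alike. Skil, a feedback inhibitor of TGF-β, had 2245, 1933 and 2438 and 892, 1038 and 931 (log2 fold change 1.20 ± 0.11 SE, adjusted p = 3.7e-07), Tgfbr3 had 332, 314 and 238 and 19.8, 2.07 and 11.9 (log2 fold change 4.96 ± 0.57 SE, adjusted p = 5.3e-06), and Tgfbr2, Tgfb1 and Smurf2 were alike. Annexins and S100 proteins, with vimentin and galectin in the same list, were higher in thymus in 7 of 20 cases, in liver_C in 1, with a median of 0.71. Vim had 4042, 4528 and 4335 and 255, 342 and 219.8 (95% interval of the log2 fold change 3.54 to 4.46, adjusted p = 2.3e-10), Lgals3 had 635, 414 and 407 and 39.1, 64.1 and 40.0 (log2 fold change 3.33 ± 0.36 SE, adjusted p = 2e-06) and Anxa2 had 1369, 1867 and 1584 and 308, 385 and 385 (log2 fold change 2.15 ± 0.17 SE, adjusted p = 2.5e-08). No thymus library overlapped a liver_C library in them. Lists of other iNKT subsets, finally, gave 6 of 16 higher in thymus and 3 in liver_C, the latter Tmem176a, Tmem176b and Plac8, and 3 higher in thymus within the highest library range. Tmem176a and Tmem176b, which overlap on opposite strands, had 11.4, 24.7 and 18.9 and 91.0, 52.1 and 48.3 in thymus and 239.9, 292 and 248 and 455, 569.8 and 555 in liver_C.

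To ask what thymus and liver_C share, their mean was compared with the mean of spleen and blood. Of 13604 genes, 546 (4.01%) were called, 295 higher (2.17%) and 251 lower (1.85%) in the former. With the further demand that no library of thymus or liver_C overlapped one of spleen or blood, 58 genes remained (0.426%), 39 above (0.287%) and 19 below (0.14%). Above 300 normalized reads there were 26 higher, of which 18 were alike between thymus and liver_C and 8 were called between them, and 6 lower, which were all alike. A gene can be both or neither, since Ptpn6 was called and alike and Usp18 was neither. The values below against spleen and against blood share the thymus or the liver_C libraries and the reference libraries, so they are given side by side and not compared. Spleen was meshed in the cold, and the preparation of the blood cells was not given. Organ and preparation thus cannot be told apart in this contrast. Of the study's stress genes, Dusp1, Fos (log2 fold change 3.02), Rhob (1.01) and Ppp1r15a (0.76) were called higher in thymus and liver_C. Fosb, Jun, Nr4a1, Klf2, Hspa1a and Hspa1b were not called.

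Among genes higher in both pools was Rgs2, a brake on G protein signaling. It had 1017, 988 and 1217 in thymus, 409, 560.5 and 540.2 in liver_C, 231, 209.7 and 189 in spleen and 173, 149.8 and 211 in blood, a shared log2 fold change of 1.92 ± 0.11 SE, adjusted p = 7e-10. Thymus was also higher than liver_C in it (log2 fold change 1.10 ± 0.15 SE, adjusted p = 4.7e-05). Dusp1 had 176, 204 and 242 in spleen and 171, 115 and 129 in blood against the values above (1.90 ± 0.13 SE, adjusted p = 8.5e-09), and its excess was larger in liver_C, by 2.39 over spleen and 2.98 over blood on the log2 scale, than in thymus, by 0.82 and 1.41. Klra3 (2.27 ± 0.26 SE, adjusted p = 1.3e-05) and B4galnt4, a glycosyltransferase (4.44 ± 0.70 SE, adjusted p = 0.00053), were higher in both, yet mostly through thymus, where B4galnt4 had 449.7, 368 and 295 and liver_C had 14.3, 22.8 and 15.3.

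Other genes gave a smaller common gain. Fosl2, Gem, Fgl2 and Ptpn6 were alike in both pools, whereas Egr3, Usp18, Cst7 and Irs2 did not meet that rule. Fosl2, an AP-1 subunit, had 557, 472 and 555 in thymus, 376, 528 and 533 in liver_C, 233, 175 and 223 in spleen and 277, 241 and 170 in blood (1.20 ± 0.13 SE, adjusted p = 8.1e-06), while thymus minus liver_C was 0.15. Gem, a small GTPase induced by activation, had 855, 666 and 736 and 553, 736 and 669 against 190.1, 228 and 171 and 247, 505 and 519.5 (1.31 ± 0.15 SE, adjusted p = 1.6e-05). Fgl2, a prothrombinase and immunoregulatory protein, had 8741, 6316 and 6767 and 5941, 7326 and 5583 against 1896, 2190 and 1673 and 5076, 5223 and 4532 (1.13 ± 0.10 SE, adjusted p = 4.6e-07), where blood was closer to the pools than spleen was. By the rule that selected these 3 genes, thymus and liver_C lay above all spleen and blood libraries in them. Ptpn6 (SHP-1), the phosphatase of inhibitory receptors, was 0.92 ± 0.08 SE, adjusted p = 8.5e-07 and differed between thymus and liver_C within 2-fold. Egr3 (1.22 ± 0.16 SE, adjusted p = 7.1e-05), Usp18 (1.01 ± 0.18 SE, adjusted p = 0.0014) and Cst7, the inhibitor of granule cathepsins (0.98 ± 0.16 SE, adjusted p = 0.0006), were higher in thymus numerically, and Irs2 (1.02 ± 0.17 SE, adjusted p = 0.00076) in liver_C, though none of these but Egr3 was called between thymus and liver_C, and the Egr3 call was lost in 8 of 18 alternatives.

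Lower in both pools were Rnf144a, a ubiquitin ligase, with 394, 373 and 379 in thymus and 240.4, 269 and 403 in liver_C against 688, 685 and 742 in spleen and 428, 472 and 529.7 in blood (-0.78 ± 0.13 SE, adjusted p = 0.00076), and Lmo4, a LIM protein, with 620.2, 616 and 513 and 479, 611 and 559.8 against 1007, 1170 and 1291 and 695, 639 and 669 (-0.63 ± 0.09 SE, adjusted p = 0.00022). In both the spleen was higher than the blood. Tspan32 (-0.36 ± 0.08 SE, adjusted p = 0.0086), Med8 (-0.38 ± 0.11 SE, adjusted p = 0.046) and Zfp800 (-0.29 ± 0.08 SE, adjusted p = 0.034) were lower by less, and the calls of Med8 and Zfp800 were lost in 13 and 14 of 24 alternatives. Gzmb was not in this set since blood overlapped, although its shared log2 fold change was 2.90 ± 0.12 SE, adjusted p = 6.3e-12; likewise Itga1 at 1.02 ± 0.22 SE, adjusted p = 0.0087 and Klre1 at 1.13 ± 0.12 SE, adjusted p = 4.9e-06.

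**Figure D5:**
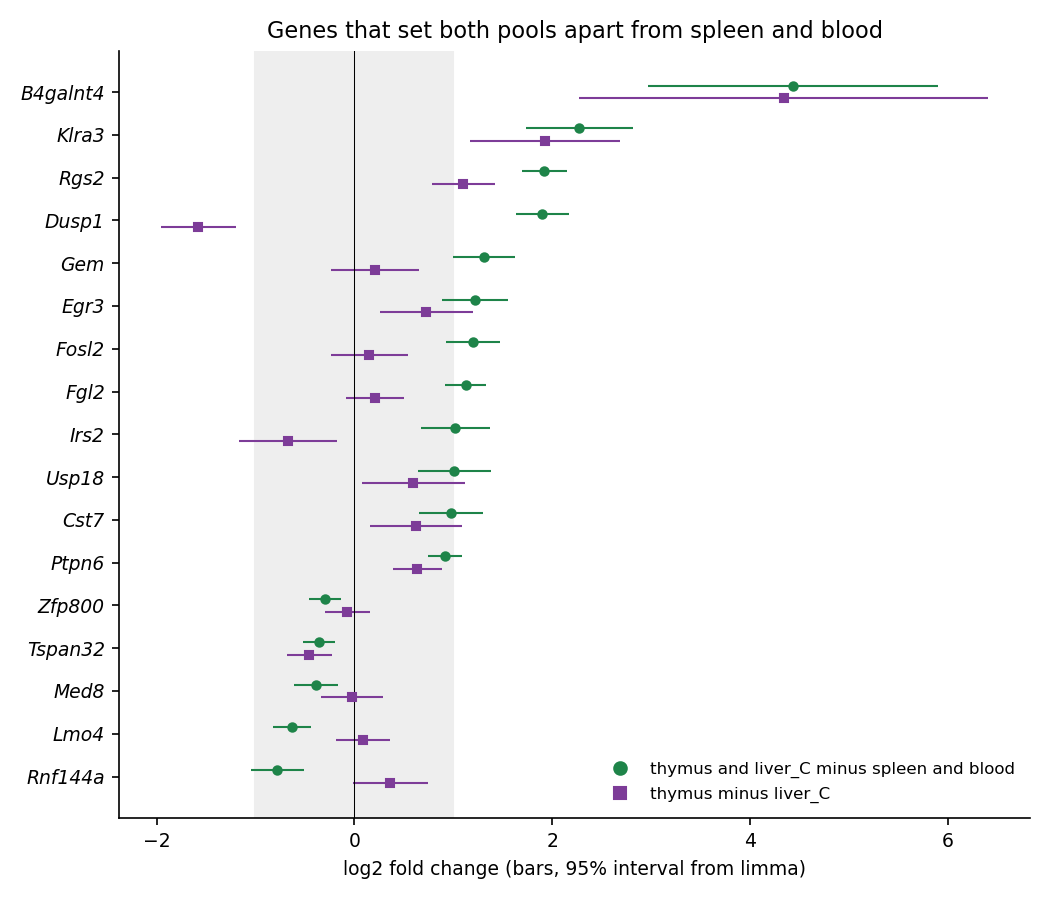
Log2 fold changes with 95% intervals (limma) of the 12 genes with the largest gain and 5 genes lower in the mean of thymus and liver_C than in the mean of spleen and blood (green circles), beside thymus minus liver_C of the same genes (purple squares); the gray band marks differences within 2-fold. Dusp1 is higher in both pools but is lower in thymus than in liver_C, whereas Fosl2, Gem and Fgl2 lie near 0 between thymus and liver_C.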

How the data were processed

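RNA of CD4+ iNKT1 cells was measured in 20 libraries in 7 groups, of which the 15 BL6 libraries entered the fit. Total RNA libraries from a stranded kit were sequenced as 75-base single reads. Trimming by Trim Galore 0.4.4, alignment by STAR to GRCm38.p6, counting by featureCounts and normalization by DESeq2 were done by the authors. The deposited values are a signal, the read count divided by a size factor per library, for 53714 genes. The strand setting of the counting was not given in the sources used here, so overlapping genes on opposite strands cannot be told apart. The authors' own log2 fold changes, p-values and adjusted p-values in the deposited table were not used, nor was 1 line without a gene. Whole reads were recovered from the steps of the values, and per library 99.987% of values or more were within 0.05 of one. Depth was 9336861 to 22879834 reads. The reads carry no molecular identifiers.

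Values were transformed to log2(value + 1), and a gene was tested where 3 libraries or more reached 10. The test was limma 3.58.1 (trend) under R 4.3.3 with Benjamini-Hochberg adjustment and a threshold of 0.05. Errors of fold changes are SE. Contrasts were thymus minus liver_C, and the mean of both minus the mean of spleen and blood. A gene was called alike where the 95% interval of thymus minus liver_C lay within -1 and 1 on the log2 scale, per gene and not adjusted. On simulated data with 13223 genes, limma found 74% of 2-fold and 97% of 3-fold differences between thymus and liver_C, and 3.4% of its calls were false. The differences were planted only in genes above a minimum mean level, so these rates do not apply to low genes. Alternatives were edgeR 4.0.16 and DESeq2 1.42.0 on the recovered reads, TMM and quantile scaling, other filters, pseudocounts of 0.5 and 10, other sets of libraries in the fit, the library number range as a block or the highest range alone, and leaving out each library.

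Named genes are those the study names, in each contrast the 12 highest and 12 lowest called genes that exceed 300 normalized reads and do not overlap, up to 5 members of each of 32 lists by adjusted p and up to 3 alike members closest to 0, and for marker lists the 3 members of highest level. The members and lists were chosen with earlier results of these data known. Some genes that these rules select are not reported here, although the counts include them.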

Additional observations from a re-analysis of the deposited data

How the results depend on the processing

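No paired analysis was run, since every library has a number of its own and the labels do not say which libraries were made together. Library numbers of the highest range run consecutively over the organs, but whether they mark rounds of preparation was not given. With the library number range as a term the fit called 1718 genes between thymus and liver_C and 704 in the contrast of both pools with spleen and blood, and with the groups compared alone, without liver_H, 1313 and 536. Counts of calls between thymus and liver_C were 1725 with edgeR and 2027 with DESeq2 against 1697, and those of the contrast of both pools with spleen and blood were 533 and 743 against 546. Within the highest library number range, with 2 libraries a group, 1055 genes were called between thymus and liver_C, 458 of them higher in liver_C, and 68 genes were higher and 38 lower without overlap in both pools than in spleen and blood, against 39 and 19. With a filter of over 300 normalized reads 477 genes were higher in thymus and 8 were lower in both pools without overlap, and with no filter 13555 genes met the rule for alike. Leaving out 1 library at a time gave 1151 to 1680 genes between thymus and liver_C, 543 to 828 higher in thymus, 578 to 852 higher in liver_C and 6942 to 7379 alike. It gave 377 to 543 genes in the other contrast, 207 to 291 higher and 170 to 252 lower, and without overlap 32 to 62 higher (62 without liver_C N1224) and 15 to 32 lower (32 without liver_C N1224, 29 without blood N1382). Fewer libraries or genes tested are part of the construction of these settings, and other causes were not tested. Of 4810 alternative values of named genes 4681 kept their side of the threshold, 89 lost the call and 40 gained it. The sign changed in 0 of 2824 values of genes called and in 127 of 1986 values of genes not called. The share of calls higher in thymus was 49.7%, and 41.2% with the filter of over 300 normalized reads.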
